A study of Mus musculus with 6 samples.

Results

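The genes described here are 10 genes of the mouse circadian clock and its neighbourhood, namely Clock, Arntl (also called Bmal1), Per1, Per2, Per3, Cry1, Cry2, Nr1d1, Thra and Dbp. They were found by symbol among the 57010 genes of the deposited count table, and all 10 had a row. Each gene on the opposite strand whose exons share at least 1 base with the exons of a listed gene was added, which gave 3 further genes, Gm45355, D930015M05Rik and Sphk2, because Nr1d1 and Thra are each other's partner. Polyadenylated RNA had been sequenced, with oligo-dT priming and paired-end reads, from 3 samples of wild-type mouse embryonic stem cells (ESC) and 3 samples of wild-type cortical neurons, which were grown from cortex of embryos at day 16.5 and kept for 7 days in vitro. The labels state that neither group was perturbed, but the library names of neuron replicates 2 and 3 hold the word empty, which the labels do not explain. Both groups were reference states in a study of Rai1, a chromatin gene whose haploinsufficiency causes Smith-Magenis syndrome, and they mark the pluripotent and the neuronal end of a developmental axis. The strain, any pooling of embryos and the hour of collection are not given in the sources used here. Nothing in the labels says that the samples of a group came from separate cultures or animals, so p-values measure the spread between these samples, which may be technical.

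The clock is a feedback loop. CLOCK and ARNTL form a dimer that switches on the Per and Cry genes, and the PER and CRY proteins return to the nucleus and block that dimer. A second loop runs through NR1D1 (REV-ERB alpha), a nuclear receptor without a ligand-dependent activation helix that represses Arntl, and through transcription factors such as DBP, which drive daily rhythms of output genes. Thra encodes the alpha thyroid hormone receptor, the main thyroid hormone receptor of the brain, and one of its splice forms ends in an exon that lies opposite the last exon of Nr1d1. Patients with Smith-Magenis syndrome have disturbed sleep and an inverted melatonin rhythm.

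The positions below are those of the deposited table, and the submitters' processing notes name GRCm39. Nr1d1 (ENSMUSG00000020889.12, protein-coding) lies on chromosome 11 from 98658758 to 98666159 on the minus strand, with 3077 exonic bases in 8 blocks. Thra (ENSMUSG00000058756.14, protein-coding) lies from 98631464 to 98659832 on the plus strand, with 4614 exonic bases in 17 blocks. The genes run towards each other, and their spans overlap by 1075 bases. The last Thra block holds 850 bases, of which 263, from 98658983 to 98659245, are also in the last exon of Nr1d1, and the other 587 lie in an Nr1d1 intron. The shared bases are 8.55% of the exonic length of Nr1d1 and 5.70% of that of Thra. In GENCODE release M21 (GRCm38) the same 263 bases are shared, and 197 of them code for protein on both strands. These 197 bases are printed because a read from them lies in exons of both genes. They are at chr11:98768223-98768419 in GRCm38, each strand is written 5′ to 3′, and the capitals mark the same 12 base pairs on both strands.
Nr1d1 (minus strand): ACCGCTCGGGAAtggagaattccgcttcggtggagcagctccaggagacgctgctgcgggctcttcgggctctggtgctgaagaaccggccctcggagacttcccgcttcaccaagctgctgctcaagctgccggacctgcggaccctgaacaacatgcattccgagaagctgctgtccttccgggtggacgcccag
Thra (plus strand): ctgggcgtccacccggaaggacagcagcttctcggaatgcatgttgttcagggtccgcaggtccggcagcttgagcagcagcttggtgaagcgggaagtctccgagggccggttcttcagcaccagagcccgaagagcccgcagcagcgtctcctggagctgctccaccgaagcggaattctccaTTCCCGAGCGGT

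**Figure D1:**
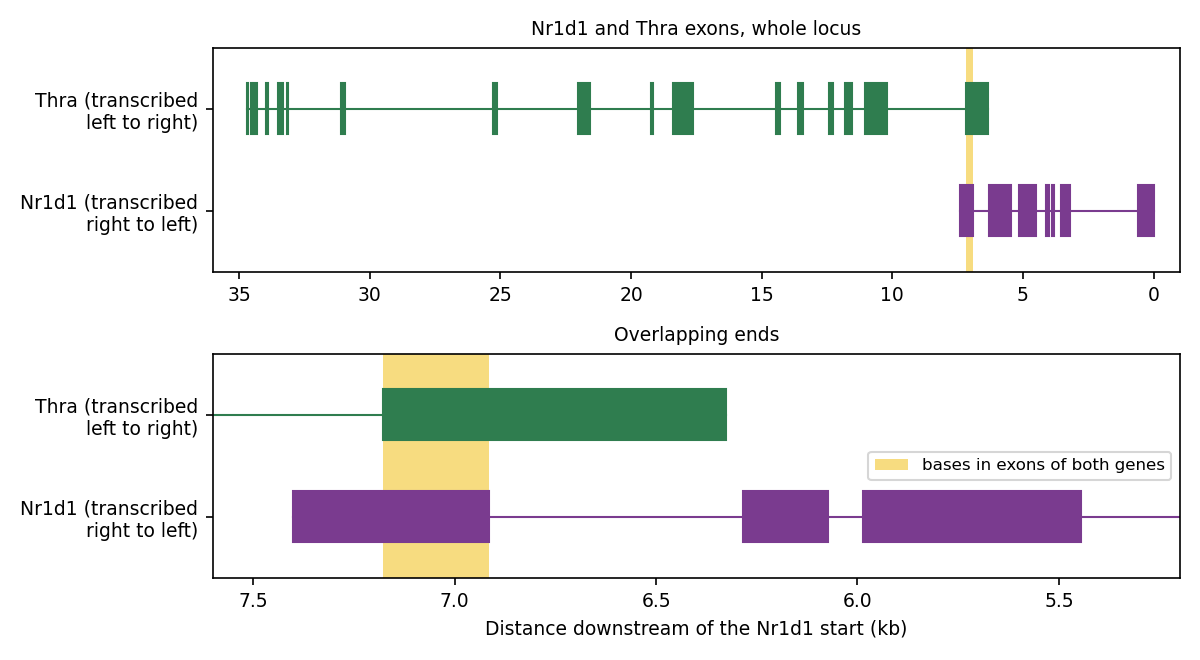
Exons (boxes) of Thra and Nr1d1 drawn to scale against the distance downstream of the Nr1d1 start in kb, for the whole locus (top) and for the overlapping ends (bottom). The yellow band is the 263 bases that lie in exons of both genes, at the last exon of each.

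The other 3 pairs overlap by 33 to 539 exonic bases. Arntl (ENSMUSG00000055116.9, chromosome 7, 112806672 to 112913333, plus strand) shares 33 exonic bases with Gm45355 (ENSMUSG00000109959.2, 112892151 to 112894544, minus strand), an antisense RNA gene of 296 exonic bases that lies wholly within the Arntl span. Cry2 (ENSMUSG00000068742.12, chromosome 2, 92233991 to 92264388, minus strand) shares 295 exonic bases with D930015M05Rik (ENSMUSG00000084781.2, 92239237 to 92262653, plus strand), a non-coding gene of 1190 exonic bases within the Cry2 span. Of these, 24.8% are shared with Cry2 exons and the rest face its introns. Dbp (ENSMUSG00000059824.13, chromosome 7, 45354512 to 45359627, plus strand) shares 539 bases, or 18.0% of its exonic length, with the 3′ end of Sphk2 (ENSMUSG00000057342.16, 45358891 to 45367426, minus strand), a sphingosine kinase gene. In release M21 the 33 bases shared by Arntl are all coding, 149 of those shared by Cry2 are coding, and none of those shared by Dbp and Sphk2 code on both strands. The coding overlaps of Arntl, at chr7:113293178-113293210, and of Cry2, at chr2:92422878-92423026 (GRCm38), are shown in the sense of the clock gene, with the first 12 bases in capitals, because reads from them lie in exons of both partners.
Arntl (plus strand): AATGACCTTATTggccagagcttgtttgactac
Cry2 (minus strand): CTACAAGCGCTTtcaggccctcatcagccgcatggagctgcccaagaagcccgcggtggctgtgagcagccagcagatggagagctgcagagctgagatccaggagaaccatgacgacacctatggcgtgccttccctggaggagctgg
Clock, Per1, Per2, Per3 and Cry1 have no partner of this kind.

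The ESC libraries held 1368303 to 1775055 counts and the neuron libraries 513425 to 624792, and the labels give each group a batch of its own, so effects of batch and group cannot be told apart. Of 8 ESC markers, 5 (Pou5f1, Nanog, Zfp42, Esrrb and Dppa5a) had 0 counts in every neuron library, and the summed level was 156 to 225 CPM in ESC and 2.61 to 4.81 CPM in neuron libraries. CPM is the count per 1000000 of the library total after scaling with TMM factors. The 8 neuronal markers did not set the neuron libraries above ESC, with 49.2 to 58.7 against 67.0 to 78.4 CPM in sum. Slc17a7, a vesicular glutamate transporter gene of cortical neurons, goes against the labels, at 64, 49 and 54 counts in ESC samples, against 2, 1 and 0. Tubb3 had 10, 4 and 8 against 4, 2 and 1 counts and Syn1 20, 28 and 10 against 10, 7 and 7, in neuron libraries that are less deep, and Syt1 had at most 1 count in any library. Map2 had 0, 0 and 1 against 10, 13 and 13 counts, Gad1 3, 0 and 0 against 12, 2 and 7, and Rbfox3 and Snap25 were at 0 in every ESC library. Among markers of other cells, 4 progenitor genes summed to 67.1 to 115 CPM in neuron and 12.7 to 16.4 CPM in ESC libraries, mostly through Pax6. The 6 astrocyte genes summed to 17.6 to 37.8 against 5.80 to 10.9 CPM, and the 6 oligodendrocyte-lineage genes to 35.8 to 56.1 against 24.1 to 29.9 CPM. Most of the latter sum was Mbp in ESC (29, 18 and 28 against 1, 2 and 2 counts) and Olig1, Olig2 and Pdgfra in neurons. The 6 microglial genes summed to 130 to 145 against 201 to 266 CPM, most of it Csf1r (266, 258 and 204 counts in ESC samples, against 97, 89 and 75), with Tmem119 and C1qa at 0 in all libraries. The 5 fibroblast genes summed to at most 3.21 CPM and the 3 endothelial genes to at most 9.95 CPM in any library. The part of other cell types in the values below was not tested. In bulk samples, fewer cells of a type and less RNA per cell cannot be told apart. Whether the counting used strand is not given in the sources used here, so the reads of a gene and of its opposite-strand partner cannot be told apart from the table alone. Over the whole table, in 2541 pairs of a protein-coding gene and an opposite non-coding gene that share exonic bases and have at least 10 counts together, the non-coding gene had more counts in 78.7% and had more in every library in 52.7%.

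As counted, without a known strand setting, Nr1d1 had the most counts of the 10 genes in every library, and it was 20.6-fold higher in neurons. It had 220, 122 and 146 counts in ESC replicates 1 to 3 and 2192, 1937 and 1803 counts in neuron replicates 1 to 3. All neuron libraries lay far above all ESC libraries, although their total counts were lower. Nr1d1 ranked 9th, 12th and 11th by count among all genes of the table in the neuron libraries and 1201st, 1482nd and 1397th in the ESC libraries. It held 0.351%, 0.348% and 0.351% of all counts in neuron libraries. Its level was 139 ± 24.4 CPM in ESC and 2879 ± 15.9 CPM in neuron libraries (SD, n = 3), which is a log2 ratio of 4.37 with an SE of 0.12 (edgeR quasi-likelihood test, Benjamini-Hochberg adjusted p 7.02e-29). The difference also passed a test against a change of at least 2-fold. Across all 15 alternatives the log2 ratio ran from 4.20 to 5.10 with an adjusted p of at most 6.68e-09. For scale, the median log2 ratio of the 7150 tested genes was 0.37 as scaled here, and scaling to total counts raised it by 0.73. Because the strand setting is not given, the Nr1d1 counts may include reads from the Thra strand, which was not tested.

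Thra differed much less as counted, with the same limit of strand. It had 50, 57 and 42 counts in ESC samples, against 65, 49 and 37 in neuronal samples, so the raw counts of the groups overlapped, while the scaled levels did not. These were 43.6 ± 10.003 CPM in ESC and 72.4 ± 12.8 CPM in neurons (SD, n = 3). The log2 ratio was 0.75, with an SE of 0.23 (edgeR adjusted p 0.0029), and the test against 2-fold was not passed (edgeR adjusted p 0.75). Its 15 alternatives gave 0.56 to 1.48, with adjusted p-values from 3.09e-07 to 0.0446. The value stood closer to the median of all tested genes, 0.37, than to that of Nr1d1.

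Within the pair, Nr1d1 held 81.5%, 68.2% and 77.7% of the joint counts in ESC replicates 1 to 3, with exact 95% binomial intervals of 76.3% to 85.9%, 60.8% to 74.9% and 71.0% to 83.4%, which cover counting error only. In neuron replicates 1 to 3 it held 97.1%, 97.5% and 98.0%, with intervals of 96.3% to 97.8%, 96.8% to 98.2% and 97.2% to 98.6%. The groups did not overlap. The mean share was 75.8% ± 6.86 in ESC and 97.5% ± 0.43 in neurons, a difference of 21.8 percentage points, and the exact two-sided permutation test gave p = 0.1, the smallest that 3 against 3 samples allow. Thra was the less counted gene of the pair in all 6 libraries. The part of the strand setting in these shares was not tested. Dividing by exonic length made the shares 82.3% ± 5.47 and 98.4% ± 0.29.

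**Figure D2:**
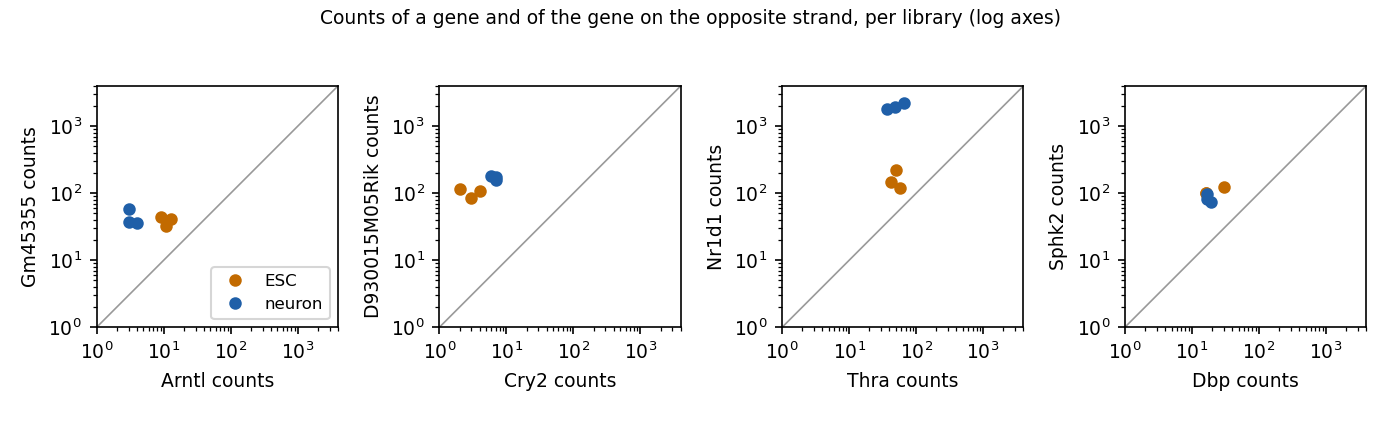
Counts of a clock gene or Thra (x axis) and of the opposite-strand gene that shares exonic bases with it (y axis), 1 point per library, both axes logarithmic. All points lie above the grey line of equal counts. Nr1d1 goes from 122 to 220 counts in ESC (orange) to 1803 to 2192 in neuron (blue) libraries at similar Thra counts.

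Of the activators, Clock was higher in neurons. Clock (ENSMUSG00000029238.12, chromosome 5, 76357715 to 76452639, minus strand) had 9, 1 and 7 counts in ESC samples, against 18, 21 and 14 in neuronal samples. The groups did not overlap, and ESC replicate 2 was the lowest. The level was 4.69 ± 3.23 CPM in ESC and 25.7 ± 4.84 CPM in neurons (SD, n = 3), a log2 ratio of 2.37, SE 0.42 (edgeR adjusted p 3.6e-06). It was 1.88 without ESC replicate 2, still past the threshold. The other activator, Arntl, had too few counts for the filter and therefore no test in the fit. It had 13, 11 and 9 counts in ESC samples, against 3, 4 and 3 in neuronal samples. The groups did not overlap, with ESC libraries the higher ones. Its level was 9.52 ± 1.27 CPM in ESC and 4.89 ± 1.03 CPM in neurons, and the ratio of the summed rates was 0.51, with an exact interval for counting error of 0.22 to 1.06. With no filter on low counts its log2 ratio was −1.11 (edgeR adjusted p 0.107).

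Gm45355, the RNA gene opposite Arntl, had more counts than Arntl in 6 of 6 libraries. It had 42, 32 and 45 counts in ESC samples, against 59, 36 and 37 in neuronal samples. Its level was 34.4 ± 5.46 CPM in ESC and 63.3 ± 12.2 CPM in neurons, and it was higher in neurons (log2 ratio 0.89 with SE 0.24, edgeR adjusted p 0.000866). The raw counts of the groups overlapped, while the scaled levels did not, and the test against 2-fold was not passed (edgeR adjusted p 0.507). With no filter, the log2 ratio was 0.72 for Gm45355 and −1.11 for Arntl, which did not pass. The 2 values thus had opposite signs, and the difference between them was not tested.

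The repressors of the Per and Cry families were near the detection limit, and only Cry2 could be tested. Cry2 had 2, 4 and 3 counts in ESC samples, against 7, 7 and 6 in neuronal samples. The groups did not overlap, and the neuron libraries were the higher ones. The level was 2.70 ± 1.18 CPM in ESC and 9.73 ± 0.66 CPM in neurons (SD, n = 3), a log2 ratio of 1.85, SE 0.49 (edgeR adjusted p 0.000771). Cry2 entered the fit only through its neuron counts, and it was not tested in the fits that left out an ESC library. It passed less clearly with no filter (1.69, edgeR adjusted p 0.0209) and with the DESeq2 Wald test (1.87, adjusted p 0.0296). With neuron replicates 2 and 3 left out, Cry2 was 1.84 and did not pass (edgeR adjusted p 0.11), a fit with 1 neuron library that is assumed to vary like the ESC ones. D930015M05Rik, opposite Cry2, had 117, 108 and 84 counts in ESC samples, against 176, 158 and 184 in neuronal samples. It exceeded Cry2 in 6 of 6 libraries, and it too was higher in neurons, at 253 ± 36.1 against 89.5 ± 14.3 CPM (log2 ratio 1.499 with SE 0.16, edgeR adjusted p 8.76e-11).

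Per1 (ENSMUSG00000020893.18, chromosome 11, 68986043 to 69000786, plus strand) had 5, 5 and 4 counts in ESC samples, against 1, 3 and 2 in neuronal samples. Per2 (ENSMUSG00000055866.10, chromosome 1, 91343704 to 91387046, minus strand) had 1, 1 and 0 counts in ESC samples, against 3, 2 and 3 in neuronal samples. Cry1 (ENSMUSG00000020038.11, chromosome 10, 84967564 to 85020928, minus strand) had 3, 0 and 2 against 0, 1 and 1 counts. Per1 and Cry1 overlapped between the groups after scaling, and Per2 did not. Summed over the libraries of a group, the ratio of neuron to ESC rates was 0.72 for Per1 (exact interval 0.23 to 2.00), 6.73 for Per2 (1.34 to 65.0) and 0.67 for Cry1 (0.064 to 4.11), where the intervals cover counting error only. With no filter, none of these passed, at edgeR adjusted p-values of 0.505 for Per1, 0.0696 for Per2 and 0.677 for Cry1. For Per1 and Cry1 a difference was not detectable at this depth. The counting interval of Per2 lies above 1, on 2 and 8 counts in all. Per3 (ENSMUSG00000028957.13, chromosome 4, 151088109 to 151129122, minus strand) had 0 counts in all 6 libraries, which allows up to 0.865 CPM over the ESC libraries and 1.46 CPM over the neuron libraries, the level of 3 counts.

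Dbp, the output gene of the set, had 30, 16 and 16 counts in ESC samples, against 17, 19 and 17 in neuronal samples. The scaled levels of the groups overlapped, at 17.5 ± 4.42 CPM in ESC and 25.9 ± 3.27 CPM in neurons (SD, n = 3). The log2 ratio of 0.53 did not pass (95% interval −0.09 to 1.15, edgeR adjusted p 0.113). It passed when libraries were scaled to total counts (1.26, edgeR adjusted p 0.000462) or by upper quartiles (0.75, edgeR adjusted p 0.0284), and with a filter of a mean of at least 10 counts (0.90, edgeR adjusted p 0.0101). Sphk2, opposite Dbp, had 124, 100 and 100 counts in ESC samples, against 97, 73 and 81 in neuronal samples, more than Dbp in 6 of 6. Its level was 93.5 ± 3.13 CPM in ESC and 122 ± 11.3 CPM in neurons. Its log2 ratio of 0.38 was just past the threshold (SE 0.17, edgeR adjusted p 0.0402), and it was no longer past it in 10 of 15 alternatives, among them every fit that left out 1 of the 6 libraries and the one that took replicate numbers as blocks (edgeR adjusted p 0.051).

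Of the 10 genes, 5 were tested (Clock, Cry2, Nr1d1, Thra and Dbp) and 4 passed, all higher in neurons. Of all tested genes 85.6% passed in either direction, 47% higher and 38.6% lower. The median log2 ratio was 1.85 over the 5 and 0.37 over all genes tested. A share near this background says nothing particular of the clock genes. Clock and Cry2 entered the fit only through their neuron counts, so a gene at their ESC level could be tested only if it was higher in neurons. With no filter, 9 of 10 were tested and 4 passed, where 40.8% of all genes passed. Against a change of 2-fold, 3 of the 5 passed (Nr1d1, Clock and Cry2), and 67.4% of all tested genes did.

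Compared per kb of exons, the order of the levels in ESC was Nr1d1, Thra, Dbp, Arntl, Per1, Cry2, Cry1, Clock, Per2 and Per3. Nr1d1 had 45.03 ± 7.94 CPM per kb, Thra 9.45 ± 2.17, Dbp 5.85 ± 1.48, Arntl 1.27 ± 0.17 and Per1 0.72 ± 0.12 (SD, n = 3). Each of these stood clear of the next in all 3 libraries, though the lowest Per1 library (0.643) lay below the highest Cry1 library (0.676). Cry2, Cry1, Clock, Per2 and Per3, all at or below 0.43 CPM per kb on average, overlapped their neighbours. In neurons the order was Nr1d1, Thra, Dbp, Clock, Cry2, Per2, Arntl, Per1, Cry1 and Per3. Nr1d1 had 936 ± 5.18 CPM per kb and Thra 15.7 ± 2.77. Dbp, at 8.66 ± 1.09, stood clear of Thra above it and of Clock below it, Clock (1.88 ± 0.35) overlapped Cry2 (1.54 ± 0.10), and Per2, Arntl, Per1 and Cry1 lay between 0.31 and 0.67 CPM per kb and overlapped. The 3 genes at the top in both groups, Nr1d1, Thra and Dbp, are among the 5 that have an opposite-strand partner with shared exonic bases.

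Because the strand of a read cannot be recovered, counts of genes linked by shared exonic bases on opposite strands were also summed into loci, and all loci of the table were tested in 1 fit. The sum cannot settle the strand. Shared bases are only 0.44% (Arntl) to 18.0% (Dbp) of a listed gene's exons, and counts elsewhere depend on the strand setting as before. Of 5562 loci tested, 86.8% differed between the groups (edgeR adjusted p under 0.05). The joint locus of Nr1d1 and Thra had 270, 179 and 188 counts in ESC samples, against 2257, 1986 and 1840 in neuronal samples, or 179 ± 20.0 and 2944 ± 44.9 CPM. It was higher in neurons by 4.04 on the log2 scale (SE 0.11, edgeR adjusted p 3.2e-25), where Nr1d1 alone gave 4.37. The joint locus of Cry2 and D930015M05Rik was higher by 1.53 (SE 0.16, edgeR adjusted p 3.09e-10). That of Arntl and Gm45355 was higher by 0.66 (SE 0.22, edgeR adjusted p 0.00602), where the unfiltered value of Arntl alone was −1.11, and it did not pass without neuron replicate 1 (0.51, edgeR adjusted p 0.0716). Sphk2 also shares exonic bases with the ribosomal protein gene Rpl18, so the locus of Dbp held 3 genes. Its log2 ratio was −0.30 (SE 0.13, edgeR adjusted p 0.0258), lower in neurons. It missed the threshold without neuron replicate 1 (edgeR adjusted p 0.0536), and turned to 0.40 when libraries were scaled to total counts, so its direction depends on the scaling.

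The wider clock was read from 32 further genes, of which 11 were tested and 10 passed, 6 of them higher in neurons and 4 lower. Since 85.6% of all tested genes passed, this count is near the background. The median log2 ratio was 1.85 over the 11 and 0.37 over all tested genes. All 6 that rose passed the filter through their neuron counts alone, and Btrc and Nono through their ESC counts alone, so these genes could enter the fit only by being high in that group. The 4 with the largest rise were Gsk3b, a kinase that phosphorylates clock proteins, from 2.05 to 20.2 CPM (log2 ratio 3.28, edgeR adjusted p 2.04e-07), the deacetylase gene Sirt1, from 4.43 to 19.8 CPM (2.16, edgeR adjusted p 4.08e-05), the ubiquitin protease gene Usp2, from 3.70 to 15.3 CPM (1.97, edgeR adjusted p 0.000129), and Prkaa1, a catalytic subunit of AMP-activated kinase, from 6.48 to 25.2 CPM (1.91, edgeR adjusted p 1.54e-05). The other 2 that rose were Tef, a relative of Dbp, and Ciart, a repressor of the CLOCK dimer, with log2 ratios of 1.89 and 1.85. The 4 that fell were Btrc, the F-box gene that marks PER proteins for degradation, from 19.8 to 1.49 CPM (−3.65, edgeR adjusted p 2.17e-06), Nono, from 23.7 to 3.50 CPM (−2.76), the casein kinase subunit gene Csnk2b, from 49.1 to 11.8 CPM (−2.05), and the acetyltransferase gene Ep300, from 33.1 to 21.9 CPM (−0.61, edgeR adjusted p 0.0492). Ep300 missed the threshold in 12 of 15 alternatives and changed sign under total counts (0.12, edgeR adjusted p 0.695). Ncor1, the corepressor that NR1D1 recruits, was tested and did not pass (174 ± 2.57 against 176 ± 39.2 CPM, log2 ratio 0.02, edgeR adjusted p 0.928). Nr1d2, the paralogue of Nr1d1 with a similar function, has no exonic partner on the opposite strand and was near the detection limit, at 2, 3 and 0 counts in the ESC libraries against 1, 2 and 2. With no filter, 17 of 31 genes passed, 9 higher and 8 lower, where 40.8% of all genes passed. Among the 7 genes that averaged 10 or more counts, 6 passed, 3 in each direction. Scaling to total counts moved the count to 7 higher and 3 lower.

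Since Thra is a hormone receptor, 21 genes of thyroid hormone action were read as well. Of these, 6 were tested and 4 passed, of which 2 were higher in neurons and 2 lower, against 85.6% of all tested genes that passed. Ncor1, also counted among the other clock genes, is 1 of the 6. The median log2 ratio was −0.11 over the 6 and 0.37 over all tested genes. Thrsp and Med1 passed the filter through their neuron counts alone, and Rxrb and Ncoa3 through their ESC counts. Thrsp, a thyroid hormone-responsive gene of lipid synthesis, rose from 0.80 ± 0.76 to 12.3 ± 4.64 CPM (log2 ratio 3.62 with SE 0.60, edgeR adjusted p 1.03e-06), and the Mediator subunit gene Med1 from 8.91 ± 1.11 to 17.6 ± 6.83 CPM (0.96, SE 0.39, edgeR adjusted p 0.0236). Med1 missed the threshold in 9 of 15 alternatives, among them no filter (edgeR adjusted p 0.12) and every fit without 1 ESC library. Rxrb, a dimer partner of thyroid hormone receptors, fell from 45.6 ± 3.74 to 7.12 ± 5.196 CPM (−2.63, SE 0.37, edgeR adjusted p 3.56e-08), and the coactivator gene Ncoa3 from 21.9 ± 0.28 to 7.08 ± 5.191 CPM (−1.58, SE 0.42, edgeR adjusted p 0.000838). Klf9, a direct target of the hormone in neurons, missed the threshold (13.4 ± 5.76 against 11.4 ± 3.70 CPM, edgeR adjusted p 0.586). Thrb, the beta receptor gene, had 1, 0 and 0 counts in ESC samples, against 1, 3 and 1 in neuronal samples. The count fell when ESC replicate 1, 2 or 3 was left out, with 4 genes tested and 2 passing, both lower. Thrsp and Klf9 were not tested in these fits, and Med1 was tested and missed the threshold. Leaving out neuron replicates 2 and 3 together also gave 2, and with no filter 7 of 20 passed, beside 40.8% of all genes. Scaling to total counts moved the 4 to 3 higher and 1 lower.

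**Figure D3:**
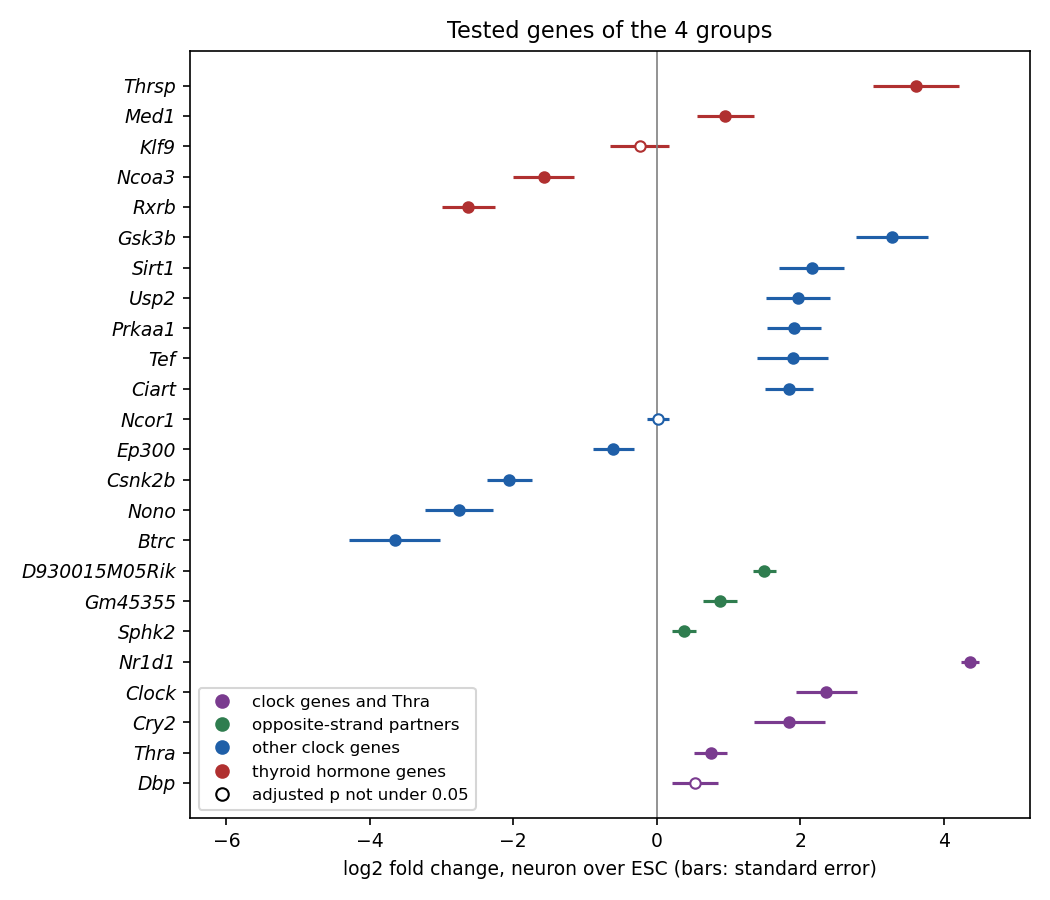
Log2 ratio (fold change) of neuron over ESC with its standard error for each tested gene among the clock genes and Thra (purple), their opposite-strand partners (green), the other clock genes (blue) and the thyroid hormone genes (red), with open points where the adjusted p was not under 0.05. Nr1d1 has the highest value, 4.37, and Btrc the lowest, −3.65. Ncor1, listed with both the other clock genes and the thyroid hormone genes, is drawn once, in blue.

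The genes with the pattern over the 6 libraries most like that of Nr1d1 were sought among the 7150 tested genes by the root mean square difference of log2(CPM + 0.5), centred on each gene's mean. The closest were Napb (0.149), 4930443O20Rik (0.152), Shisa6 (0.154), Cacnb2 (0.155) and Junos (0.158). Of these, Napb, 4930443O20Rik, Shisa6 and Cacnb2 had 0 counts in every ESC library and 9.23 to 10.7 CPM on average in neurons, so their likeness depends on the added 0.5. Junos, which had counts in both groups, went from 15.7 to 403 CPM.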

How the data were processed

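RNA had been sequenced from 3 ESC and 3 neuron samples. The authors deposited 1 table of raw counts per gene with exon positions, strand and length. Per the submitters' processing notes, cutadapt, STAR and RSEM were used with GRCm39 (mm39). The table has the column layout of featureCounts and holds whole numbers. The counter, its strand setting and all versions are not given in the sources used here. The deposited length, used for values per kb, equalled the merged listed exons in each gene. Symbols came by identifier from a gene name table (91.3% of genes matched) and gene types from GENCODE M21, in which 97.2% of the shared genes start at another position, so sequences carry GRCm38 positions and nothing was converted. Columns were matched to samples by library name, and samples to groups by title.

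Genes were kept by filterByExpr (minimum count 10), scaled by TMM and compared with edgeR 4.0.16 (glmQLFit, robust, glmQLFTest, and glmTreat against 2-fold), with all 6 samples and no covariate, Benjamini-Hochberg adjustment and a threshold of 0.05, in R 4.3.3. Standard errors are the absolute log2 ratio over the square root of F, and are approximate. A gene with 3 counts had 2.26 to 2.90 CPM in ESC and 3.92 to 4.81 CPM in neuron libraries. Exact intervals are at 95%. Alternatives were DESeq2 1.42.0 size factors and Wald test, total counts, upper quartiles, other filters, limma 3.58.1 voom, the replicate block and leaving out each library. Leaving out neuron replicates 2 and 3 together was chosen after seeing the data. Simulated counts with known changes were used to test the scripts. Members, lists and alternatives were chosen with earlier results of these data known. The rule for named genes took every listed clock gene and partner, and from each of the other lists the 4 passing genes with the largest change in each direction, plus the 5 genes most like Nr1d1. Tef, Ciart, Ncor1, Nr1d2, Klf9 and Thrb were named after their values were seen.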

Additional observations from a re-analysis of the deposited data

How the results depend on the processing

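Nr1d1, Thra, Clock, D930015M05Rik and Gm45355 kept their direction and stayed past the threshold in all 15 alternatives. Over the 6 fits that each left out 1 library, the log2 ratio ran from 4.20 to 4.44 for Nr1d1 and from 0.56 to 0.88 for Thra, 3 to 4 of the clock genes passed, 7 to 12 other clock genes and 2 to 5 thyroid hormone genes passed, 5430 to 7353 of all genes and 4298 to 5809 loci passed, and the difference in Nr1d1 share ran from 18.0 to 24.6 percentage points. Without the filter, 28820 genes were tested and 11762 passed, with 17 other clock and 7 thyroid hormone genes, because more genes were tested. A mean of at least 10 counts left 6 other clock genes past the threshold. Without neuron replicates 2 and 3, 2 thyroid hormone genes passed, and the cause was not tested. The locus of Dbp reversed to 0.399 under total counts, a scaling that raises all values. With it, 65.5% of the genes that passed were higher in neurons, against 54.9% with the main scaling. With the replicate number as a block, 6088 genes and 4809 loci passed, Nr1d1 was at 4.38 and Thra at 0.75, and Sphk2 missed the threshold. Same-numbered samples deviated together with r of −0.0218 to 0.0185, and equal numbers are thus not treated as pairs. Depth limits Per1, Per2, Per3, Cry1 and Arntl, which had at most 13 counts in any library.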

Other observations

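The exonic partners of the other clock and thyroid hormone genes, looked at after the counts had been seen, were compared in the same way. Of the 32 other clock genes, 14 share exonic bases with 17 opposite-strand genes, and in 7 of these 17 pairs the partner had more counts than the clock gene in all 6 libraries. Over the whole table this held in 52.7% of such pairs of a protein-coding and a non-coding gene with at least 10 counts together. That share leaves out pairs of coding genes and genes that are not in release M21, so it is not drawn from the same kinds of pairs as the 17. Of the 17 partners, 11 were tested and 8 passed, where 85.6% of all tested genes passed. Neither count lay above the share set beside it. Gm16059, sharing 267 bases with the casein kinase gene Csnk1e, rose from 169 to 762 CPM (log2 ratio 2.17 with SE 0.13, edgeR adjusted p 5.44e-18), while Csnk1e itself was at 6, 5 and 5 counts in the ESC libraries against 1, 2 and 4. The gene ENSMUSG00000120026.1, sharing 194 bases with Csnk2a1, fell from 944 to 135 CPM (−2.80, SE 0.13, edgeR adjusted p 6.15e-22). Gm43909, sharing 1280 bases with the repressor gene Bhlhe41, rose from 15.02 to 94.2 CPM (2.62, SE 0.26, edgeR adjusted p 7.11e-12), and Gm15511, sharing 82 bases with Rora, whose protein competes with NR1D1 for its sites, rose from 1.45 to 38.9 CPM (4.64, SE 0.48, edgeR adjusted p 3.43e-11). Among 7 pairs of thyroid hormone genes, which include those of Ncor1 counted above, 7 partners were tested and 6 passed, and in 3 the partner was higher in every library. Of these, 4921501I09Rik, sharing 68 bases with the coactivator gene Ncoa1, rose from 7.32 to 72.8 CPM (3.30, SE 0.30, edgeR adjusted p 1.43e-12).

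For 2 of the clock genes without an exonic partner, a gene on the opposite strand lies close by. Gm7467 lies 84 bases from Clock, with 10, 14 and 7 counts in the ESC libraries against 1, 2 and 1, where Clock was higher in neurons. ENSMUSG00000120874.1 lies 196 bases from Per2 and had 2, 1 and 1 against 5, 6 and 3 counts.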
